A study of Mus musculus with 24 samples.

Results

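The genes described here encode F-box proteins, and they were chosen by name. Each had a platform symbol that begins Fbxl, Fbxo or Fbxw followed by a number, and Fbxl21 was left out. Of 19938 genes with a probe set of 1 symbol, 70 matched, namely 17 Fbxl, 17 Fbxw and 36 Fbxo symbols, and each was represented by its probe set of highest mean. One of the 70, Fbxl12os, is an RNA of the strand opposite Fbxl12 and encodes no F-box protein. A further 2 probe sets, which name several Fbxw genes, were not used.

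An F-box protein is the part of an SCF ubiquitin ligase that picks the substrate. Its F-box binds SKP1, which joins it to the cullin CUL1 and the RING protein RBX1, while another domain holds the protein to be marked for the proteasome. The domain gives the family its names, with leucine-rich repeats in Fbxl, WD40 repeats in Fbxw and other or no known domains in Fbxo proteins. In the circadian clock, F-box proteins set the lifetime of clock proteins. FBXL21 acts on cryptochromes, FBXW11 (beta-TrCP2) on phosphorylated period proteins and FBXW7 on REV-ERB alpha.

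The tissue was the suprachiasmatic nucleus (SCN), the circadian pacemaker in the hypothalamus, of C57/BL6 mice that had lived for 3 weeks in 12 h of light and 12 h of darkness and were then moved to complete darkness. The 24 arrays, spaced by 2 h, covered CT 18 to CT 64 (CT, circadian time), and each carried a pool of RNA from 3 mice in equal amounts. The sex and age of the mice are not given in the sources used here. The first cycle is CT 18 to CT 40 and the second CT 42 to CT 64, with 12 arrays each and no replicate at any time.

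All 10 markers of SCN neurons were above the level filter, with a mean between 8.04 and 8.99 on the log2 scale over the arrays. In pooled tissue of this kind, fewer cells of a type and less RNA per cell cannot be told apart. The arrays at CT 40, CT 62 and CT 64 stood apart, with interquartile ranges of 2.48 to 2.67 against 2.72 to 2.90 on the other 21 arrays. On the 3 arrays the mean over 1194 olfactory and vomeronasal receptor genes, called the array background here, was 0.16 to 0.34 above its series mean, against -0.15 to 0.04 elsewhere.

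The first question was which F-box transcripts follow a 24-h cycle in darkness. Of the 70 genes, 53 had a mean at or above the 30th percentile of all genes (5.52 on the log2 scale) and were tested. Rhythm was tested with limma as a cosine of 24 h fitted to the log2 values, and a gene was called where its p, adjusted by Benjamini-Hochberg over 13956 genes, was under 0.05. Amplitudes are log2 differences from mean to peak with the standard error of the fit over 24 arrays, and peaks are circadian times between 0 and 24 h. The test called 2 of the 53, or 3.77%, against 7.65% of all genes tested. They were Fbxo36 and Fbxo22. Leaving out 1 array in turn gave 1 to 5 calls, while 5.04% to 10.3% of all genes were called. The 5 calls came without CT 26, where the share of all genes was 10.3%. At an unadjusted p under 0.05 there were 16 of 53 (30.2%), against 27.5% of all genes. The median amplitude was 0.07 among these 53 and 0.07 among all genes tested.

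The sequences that lie just before the start sites of the called genes are shown here because these 2 were the members with a call. They are the 250 bases before the RefSeq start in GRCm38.p6, written 5′ to 3′ on the strand of the gene. Fbxo36 lies at chr1:84839591-84839840 and Fbxo22 at chr9:55208685-55208934, both on the plus strand. Capitals mark a match to one of the motifs searched.
Fbxo36: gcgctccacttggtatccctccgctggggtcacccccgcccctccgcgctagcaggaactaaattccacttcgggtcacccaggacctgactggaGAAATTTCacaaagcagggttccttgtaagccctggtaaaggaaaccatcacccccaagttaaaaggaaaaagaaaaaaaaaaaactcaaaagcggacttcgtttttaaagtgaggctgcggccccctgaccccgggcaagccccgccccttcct
Fbxo22: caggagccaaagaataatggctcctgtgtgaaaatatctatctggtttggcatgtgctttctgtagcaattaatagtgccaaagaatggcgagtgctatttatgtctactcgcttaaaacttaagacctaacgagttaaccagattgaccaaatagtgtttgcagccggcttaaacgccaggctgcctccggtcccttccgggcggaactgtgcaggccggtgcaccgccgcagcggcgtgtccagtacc

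Motifs were searched on both strands of windows of 300 bases, the last 50 of them after the start, and none of the motifs contains another. The Fbxo36 window held a heat shock element (GAANNTTC), found in 7.86% of 32851 RefSeq promoters of the same length, and the Fbxo22 window held none of the 5 motifs. RefSeq promoters were at hand for 42 of the 53 tested genes, 60 windows in all. The E-box CACGTG, the site of CLOCK and BMAL1, stood in 5 of the 60 (8.33%, against 7.15% of all promoters), those of Fbxl2, Fbxl22, Fbxo10 and Fbxo7. The ROR element AGGTCA stood in 7 (11.7% against 16.3%), the heat shock element in 2 (3.33%), the CRE TGACGTCA in 1 (1.67% against 1.79%) and the D-box TTATGNAA in 0 (against 3.38%). These are matches of letters in a short window and no measure of binding.

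Fbxo36 encodes an F-box protein of the Fbxo class. Its values in the first cycle ran from 7.40 (CT 40) through a median of 7.70 to 7.87 (CT 30), and in the second from 7.38 (CT 62) through 7.61 to 7.85 (CT 54). Both maxima fell at circadian time 6, and the minima fell at circadian times 16 and 14. The 8 arrays within 4 h of the fitted peak held 7.54 to 7.87 and the 8 within 4 h of the trough 7.38 to 7.63, so the ranges overlapped. The fitted amplitude was 0.15 ± 0.03, so that peak and trough differed 1.23-fold, and the peak stood at 5.81 ± 0.78 h (adjusted p = 0.0114 by limma). Fitted to each cycle alone, the amplitude was 0.17 with a peak at 5.88 h in the first and 0.14 with a peak at 5.73 h in the second.

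The lowest 3 values of Fbxo36, 7.38, 7.40 and 7.42, were those of the arrays of narrow range. Without these arrays the amplitude was 0.12 and the peak at 6.86 h (adjusted p = 0.0357). A fit that took the array background as a covariate gave 0.14 and 6.68 h (adjusted p = 0.0154). The call held in all 24 fits that each left out 1 array, with an amplitude of 0.14 to 0.16 and an adjusted p of at most 0.0249 (without CT 28).

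Fbxo22 encodes a substrate receptor known for its action on the histone demethylase KDM4A and on BACH1. In the first cycle it ran from 6.84 (CT 40) through a median of 7.41 to 7.54 (CT 20), and in the second from 7.25 (CT 62) through 7.47 to 7.66 (CT 54). Low values in the first cycle were also found at CT 36 (7.12) and CT 38 (7.17), while the other 9 arrays of that cycle held 7.37 to 7.54. The amplitude was 0.15 ± 0.04, or 1.24-fold from trough to peak, with the peak at 2.09 ± 0.98 h (adjusted p = 0.0400 by limma). It was 0.20 in the first and 0.11 in the second cycle, with peaks at 1.96 and 2.32 h.

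The call of Fbxo22 lay near the threshold. Without CT 40, CT 62 and CT 64 its amplitude was 0.11 (adjusted p = 0.108). In the fit that held the array background it was 0.07 (adjusted p = 0.418). Leaving out 1 array ended the call in 9 of 24 fits, those without CT 24, CT 36, CT 38, CT 46, CT 48, CT 50, CT 54, CT 62 or CT 64. The highest adjusted p was 0.0739 (without CT 36), and the amplitudes of these 24 fits were 0.12 to 0.17. Without CT 40 alone, its lowest value, the call held (0.12, adjusted p = 0.0407).

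**Figure D1:**
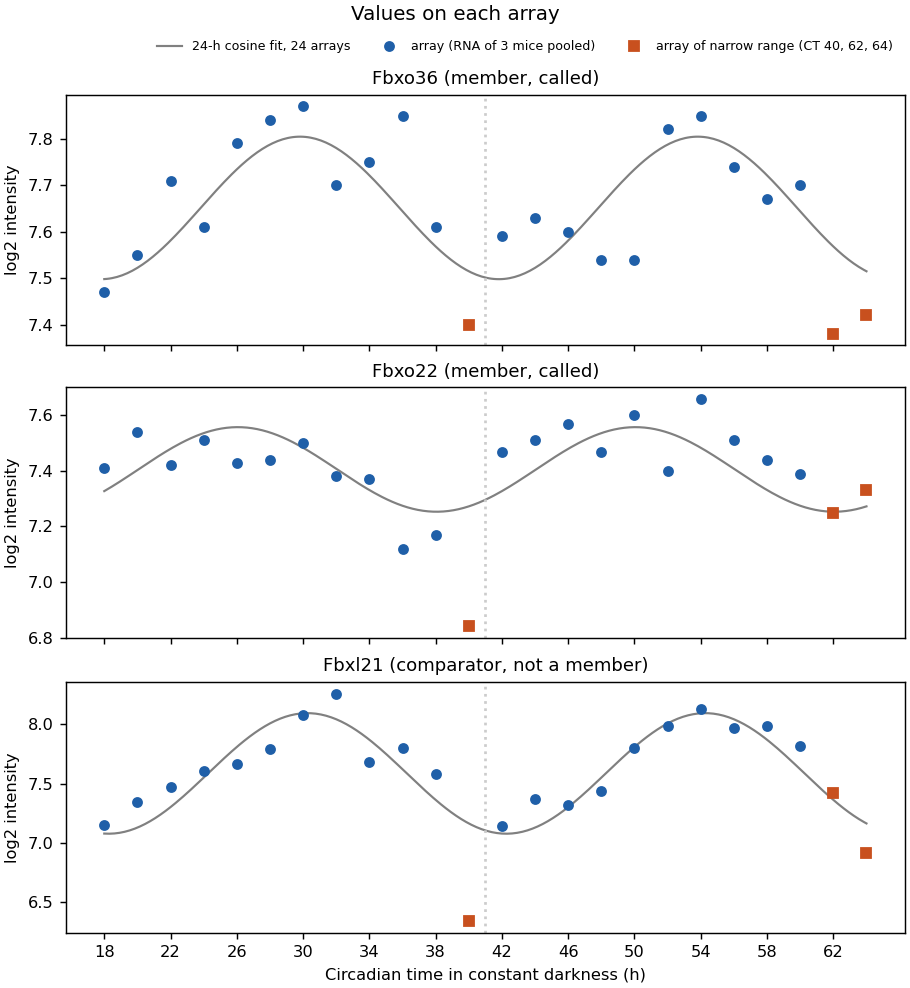
Log2 intensity on each of 24 arrays against circadian time for Fbxo36, Fbxo22 and the comparator Fbxl21, with the fitted 24-h cosine, where each point is 1 array and orange squares mark CT 40, CT 62 and CT 64. Fbxo36 is highest at CT 30 and CT 54, Fbxo22 falls to 6.84 at CT 40, and Fbxl21 moves over a wider range, from 6.34 to 8.26.

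For scale, Fbxl21, the F-box gene left out by name, had an amplitude of 0.51 ± 0.06 (peak over trough 2.02-fold) and peaked at 6.27 ± 0.47 h (adjusted p = 3.4e-05 by limma). Its 8 arrays near the peak held 7.68 to 8.26 and the 8 near the trough 6.34 to 7.47, with no overlap. Whether Fbxo36 and Fbxl21 differ in peak or amplitude was not tested.

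The clock protein ligases Fbxw11 and Fbxw7 were not called. Fbxw11 ran from 7.67 (CT 40) through 8.09 to 8.29 (CT 26) in the first cycle and from 7.75 (CT 64) through 8.10 to 8.46 (CT 46) in the second. Its amplitude was 0.08 ± 0.05 (adjusted p = 0.428). Fbxw7, whose protein also acts on MYC and cyclin E, ran from 8.29 (CT 40) through 9.14 to 9.51 (CT 18) and from 8.79 (CT 54) through 9.05 to 9.24 (CT 48), with an amplitude of 0.12 ± 0.06 (adjusted p = 0.327). Its range over 24 arrays, 1.22, was the widest of the 53 genes, and both its extremes fell in the first cycle. A further probe set of Fbxw7 gave 0.10 ± 0.04 (adjusted p = 0.164).

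The uncalled genes nearest to the threshold were Fbxl6, Fbxw2, Fbxw4, Fbxl4 and Fbxo28. Fbxl6 ran from 6.09 (CT 20) through 6.33 to 6.54 (CT 26) and from 5.98 (CT 42) through 6.36 to 6.55 (CT 54). Its amplitude was 0.13 ± 0.04 with a peak at 7.35 h (adjusted p = 0.0582), and both cycles gave it alike, 0.13 at 7.28 h and 0.12 at 7.42 h. Neither cycle's lowest value fell on an array of narrow range, and without those arrays the amplitude was again 0.13 (adjusted p = 0.0748). With array weights Fbxl6 was called (adjusted p = 0.0389), while without the arrays rich in pituitary markers and their partners at the same circadian time its amplitude was 0.06 (adjusted p = 0.442).

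Fbxl4, which encodes a mitochondrial protein that restrains mitophagy, had an amplitude of 0.15 ± 0.05 (peak 2.86 h, adjusted p = 0.0852). It ran from 6.58 (CT 40) through 7.15 to 7.35 (CT 26) and from 6.79 (CT 60) through 7.02 to 7.37 (CT 54). Fbxo28 had an amplitude of 0.14 ± 0.04 (peak 2.98 h, adjusted p = 0.0862) and its lowest values of 7.20 at CT 40 and 7.55 at CT 64. Fbxw2 and Fbxw4 had amplitudes of 0.08 ± 0.02 and 0.09 ± 0.03 (adjusted p = 0.0809 and 0.0819). Without the arrays of narrow range the amplitude of Fbxl4 was 0.09 and that of Fbxo28 0.05.

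The members listed for roles in neurons were uncalled, where 7.65% of all genes were called. Fbxl16, which is rich in brain, ran from 7.76 (CT 20) through 7.97 to 8.04 (CT 28) and from 7.58 (CT 42) through 7.88 to 8.20 (CT 54), with an amplitude of 0.09 ± 0.03 at 6.30 h (adjusted p = 0.140). Fbxl20 (SCRAPPER), which acts on the release factor RIM1 at synapses, had an amplitude of 0.07 ± 0.03 (adjusted p = 0.232). Fbxo45, which works with the synaptic ligase MYCBP2, had one of 0.08 ± 0.03 with a peak at 17.6 h (adjusted p = 0.197), 0.14 in the first cycle and 0.02 in the second. Of the 5 receptors of glycoproteins, Fbxo2, Fbxo6, Fbxo17, Fbxo27 and Fbxo44, 0 were called by limma and 1 had an unadjusted p under 0.05 (against 27.5% of all genes). It was Fbxo44 (amplitude 0.10 ± 0.03, peak 3.94 h, adjusted p = 0.125).

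Fbxl5, Fbxo7 and Fbxo32, chosen for their known roles, were also uncalled. Fbxl5, the iron sensor that acts on IRP2, had an amplitude of 0.05 ± 0.03 (adjusted p = 0.355). Fbxo7, mutated in a form of parkinsonism, had 0.03 ± 0.03 (adjusted p = 0.701), and Fbxo32, the atrophy ligase atrogin-1 of muscle, 0.05 ± 0.04 (adjusted p = 0.662). Of 8 listed genes of the cell cycle and DNA damage, 7 were tested, and limma called 0 (against 7.65% of all genes) with 0 at an unadjusted p under 0.05 (against 27.5%). The one with the largest range without the 3 arrays was Fbxo5 (EMI1, an inhibitor of the anaphase-promoting complex), at 0.78, with an amplitude of 0.12 ± 0.05 and an adjusted p of 0.257. By class, limma called 0 of 15 Fbxl, 0 of 9 Fbxw and 2 of 29 Fbxo genes, with 5, 2 and 9 at an unadjusted p under 0.05. The shares by class were 0%, 0% and 6.9% called, against 7.65% of all genes, and 33.3%, 22.2% and 31.0% unadjusted, against 27.5%, and whether the classes differ was not tested. Fbxl12os had an amplitude of 0.04 ± 0.04 (adjusted p = 0.781).

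**Figure D2:**
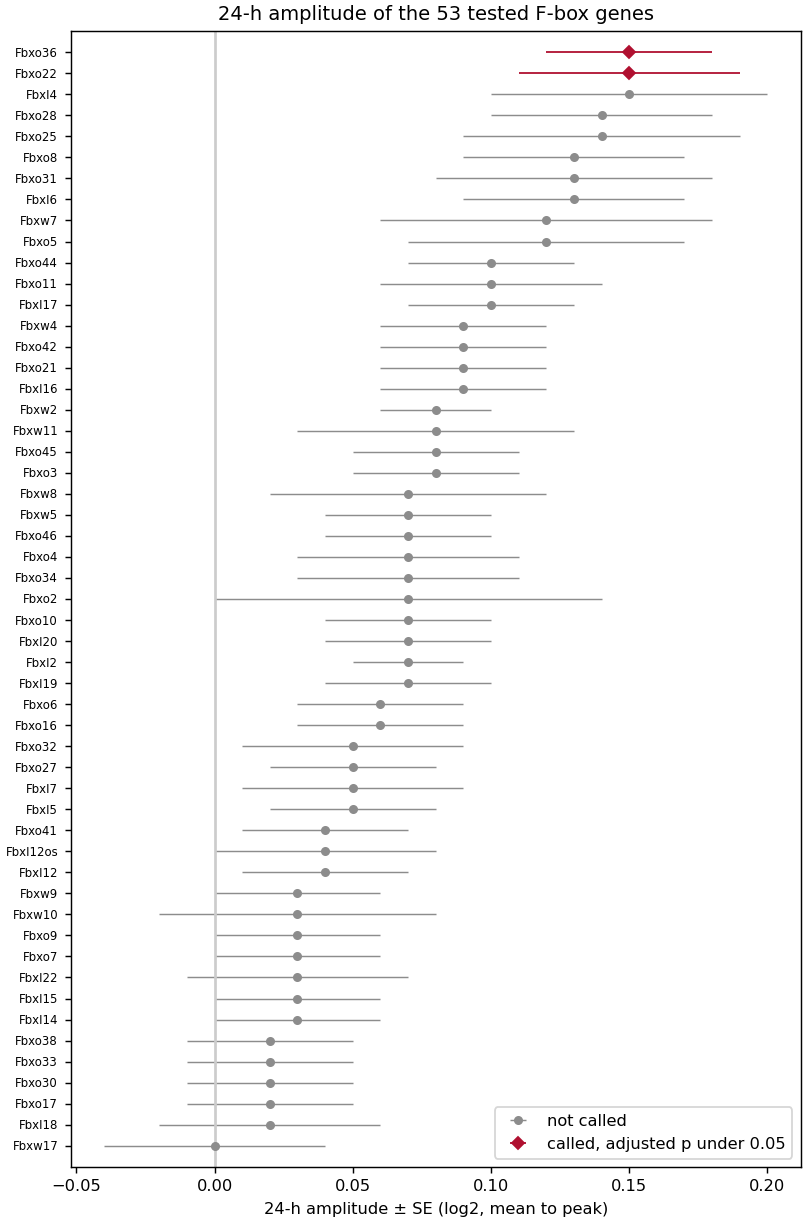
Amplitude of the 24-h fit with its standard error for each tested gene (52 F-box genes and Fbxl12os), ordered by amplitude, with called genes as red diamonds. Amplitudes end at 0.15, and Fbxl4 and Fbxo28, uncalled, sit beside the called pair with larger standard errors than Fbxo36.

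Most of the fitted peaks, called or not, lay early in the subjective day. Of the 53 genes, 33 peaked from 0 to 6 h (62.3%, against 38.2% of all genes tested). Another 8 peaked from 6 to 12 h, 7 in the following 6 h and 5 after 18 h. For an amplitude near its standard error a fitted peak is poorly placed, so these counts describe the fits. Peaks of the separate cycles lay within 4 h of each other for 30 genes (56.6%, against 60.7% of all genes).

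The arrays of narrow range stand at circadian times 14 and 16. The array at CT 40 held the lowest of the 24 values for 19 of the 53 genes (35.8%, against 29.6% of all genes), including Fbxo22, Fbxl4, Fbxo28, Fbxw7 and Fbxw11. The mean of the 3 arrays of narrow range minus that of the other 21 had a median of -0.09 over the 53 genes and -0.06 over all genes tested. This difference was above 0 for 17 of the 53, and for 5456 of all 13956 genes tested. The same array held the highest value for 6 of the 53 genes (11.3%, against 15.6% of all genes), among them Fbxo34 with 8.70 and Fbxo4 with 7.46.

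Without CT 40, CT 62 and CT 64, 1 of the 53 genes was called, Fbxo36, against 4.87% of all genes. The peaks from 0 to 6 h then numbered 25 (47.2%, against 29.7%), and 6 genes had an unadjusted p under 0.05 (11.3%, against 23.9%). In the fit that held the array background, 2 were called against 3.83% of all genes, Fbxo36 and Fbxo34 (amplitude 0.13 ± 0.03, peak 23.5 h, adjusted p = 0.0353). On all arrays Fbxo34 had an amplitude of 0.07 ± 0.04 (adjusted p = 0.510). Under that covariate 21 peaks fell between 0 and 6 h (39.6%, against 29.1%).

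**Figure D3:**
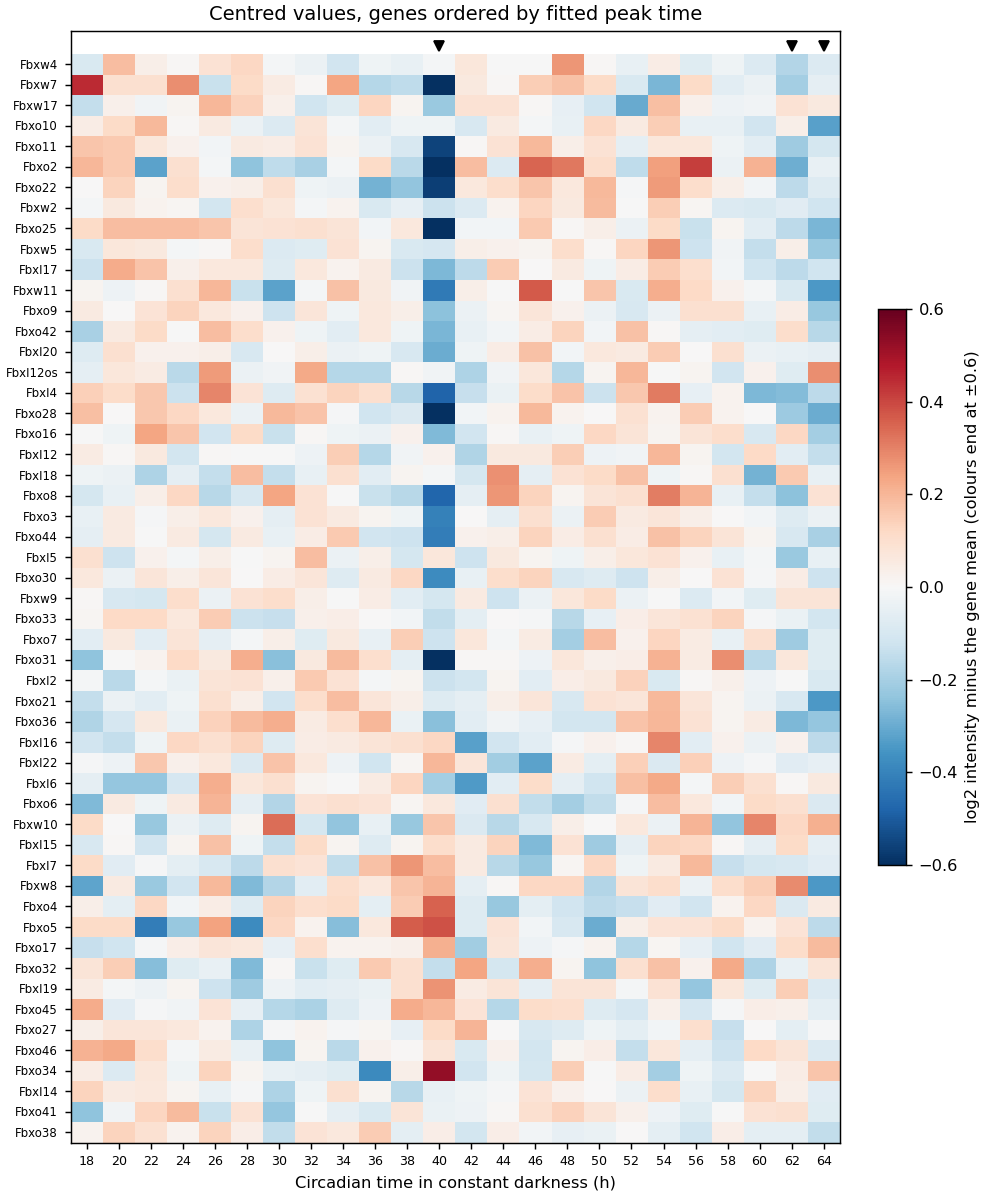
Log2 intensity minus the mean of each gene for the 53 tested genes (rows, ordered by fitted peak) on 24 arrays (columns, by circadian time), with triangles over CT 40, CT 62 and CT 64. Colours end at differences of 0.6. The column at CT 40 is dark blue for many early-peaking genes of the upper rows and red for Fbxo34 and Fbxo4.

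**Figure D4:**
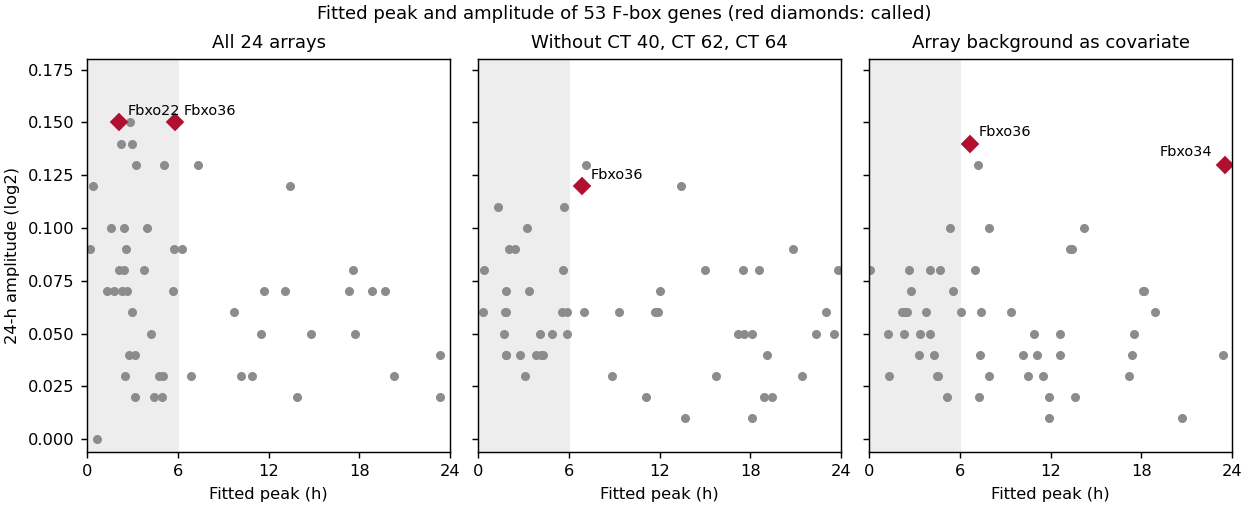
Fitted peak against amplitude of the 53 genes on all arrays, after leaving out CT 40, CT 62 and CT 64, or given the array background as a covariate. Red diamonds are called genes and the hours from 0 to 6 are shaded. The peaks in the shaded hours number 33, 25 and 21 in turn, and Fbxo36 is called in each panel.

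More genes were called in a fit with a covariate for oligodendrocyte markers. The mean of 6 measured markers of these myelin-forming cells ranged from 8.57 to 9.72 over the first cycle and from 8.99 to 9.71 over the second, and CT 40 had the lowest. With that mean in the fit, 16 of the 53 genes were called (30.2%), against 25.5% of all genes, with amplitudes of 0.09 to 0.18. Of the 16, 15 peaked between 0 and 6 h, where 38.2% of all genes tested peaked without the covariate. The share among all genes called in this fit is not given here. The 16 included Fbxo22 (0.18, adjusted p = 0.0013), Fbxo36 (0.16, 0.00182), Fbxo28 (0.17, 0.0102) and Fbxl4 (0.17, 0.0130).

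Pituitary markers gave another signal that differed between arrays, and whether pituitary tissue was present was not tested. The mean of 7 pituitary markers, 4 of them above the level filter, was 5.24 to 7.89 in the first and 5.08 to 5.99 in the second cycle, and its 5 highest values were those of CT 18 to CT 26. Without these arrays and those of CT 42 to CT 50, at the same circadian times, 14 arrays remained, which cover circadian times 4 to 16. On them limma called 11 of the 53 genes, against 15.1% of all genes tested. The 11 included Fbxo36 (0.21, adjusted p = 0.0155), Fbxo22 (0.23, 0.0250), Fbxo28 (0.35, 0.00656) and Fbxw11 (0.35, 0.0344). The peak of Fbxo22 stood at 6.25 h in this fit, against 2.09 h on all arrays. That of Fbxo36 stood at 6.29 h, against 5.81 h. The amplitudes of Fbxl6 and Fbxl16 were lower than on all arrays, at 0.06 and 0.03 (adjusted p = 0.442 and 0.824). CT 40 is among these 14 arrays, and with the rest of the day missing the amplitude is extrapolated.

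The next question was whether F-box transcripts changed between the first and second cycle in darkness. Limma called 0 of the 53 genes for a cycle term beside the 24-h terms, as it called 0% of all genes tested. At an unadjusted p under 0.05 there were 4 of 53 (7.55%, against 8.71% of all genes). Fbxo4, an F-box gene of the cell cycle, had 7.18 ± 0.12 (SD, n = 12) in the first and 7.04 ± 0.10 (SD, n = 12) in the second cycle. Its highest value, 7.46, was that of CT 40, and the ranges of the cycles overlapped (7.03 to 7.46 and 6.88 to 7.23). The second-minus-first difference was -0.14 ± 0.04 (adjusted p = 0.409 by limma). Fbxo38 gave -0.10 ± 0.04, Fbxo22 0.12 ± 0.05 and Fbxo2, a receptor of glycoproteins in neurons, 0.20 ± 0.09, with adjusted p from 0.490 to 0.521. Of the 53 genes, 27 were higher and 26 lower in the second cycle. The part of the pituitary signal in the difference of any single gene was not tested.

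**Figure D5:**
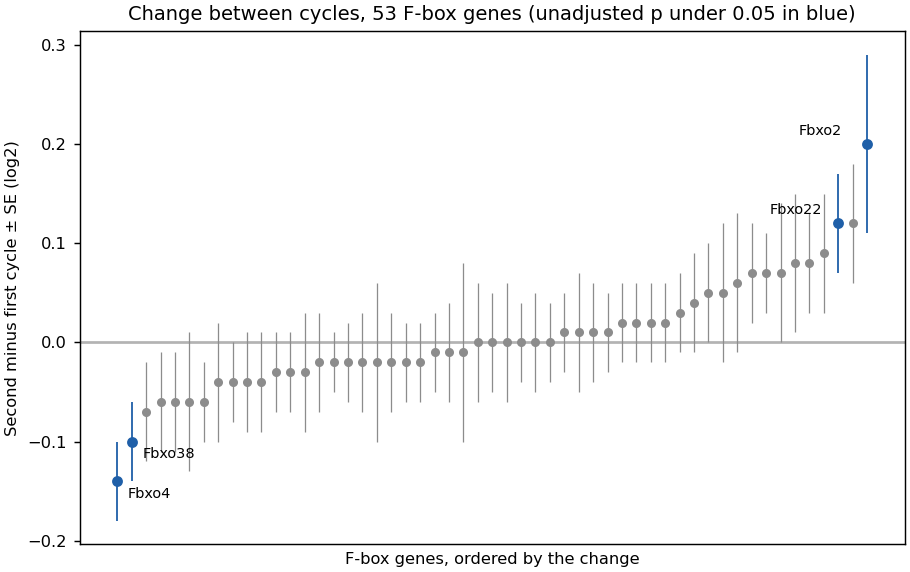
Difference of the second from the first cycle, with its standard error, for each of the 53 tested genes in order of the difference. Fbxo4 and Fbxo38 are lowest, Fbxo2 is highest at 0.20, and 0 of the 53 passed the adjusted threshold.

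A 12-h component beside the 24-h cosine was called by limma for 0 of the 53 genes, against 0.0358% of all genes. At an unadjusted p under 0.05 there were 9 of 53 (17.0%, against 21.9% of all genes). The smallest p values were those of Fbxo28 (12-h amplitude 0.13 ± 0.04, adjusted p = 0.131), Fbxo44 (0.10 ± 0.03, 0.137) and Fbxo8 (0.13 ± 0.04, 0.137). CT 40 held the lowest value of each of these 3 genes.

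Of 45 listed symbols for other SCF genes and their regulators, 41 were tested. Some of the 45 are older and newer symbols of the same gene. The list also holds F-box genes under other symbols, such as Skp2 and Btrc (amplitude of Btrc 0.05 ± 0.03, adjusted p = 0.382 by limma). Limma called 2 of the 41 for a 24-h rhythm (4.88%, against 7.65% of all genes). At an unadjusted p under 0.05 there were 16 (39.0%, against 27.5%). Cks1b, the cofactor with which SKP2 binds p27, peaked at 13.6 h with an amplitude of 0.22 ± 0.05 (adjusted p = 0.0136 by limma). Cops7a, a subunit of the COP9 signalosome that takes NEDD8 off cullins, peaked at 3.86 h with an amplitude of 0.12 ± 0.03 (adjusted p = 0.0312). Neither was called with the array background covariate (adjusted p = 0.0527 and 0.124), and Cops7a was not called without the 3 arrays (0.155). The core subunits were uncalled, with amplitudes of 0.13 ± 0.04 for Skp1, 0.08 ± 0.03 for Cul1 and 0.08 ± 0.02 for Rbx1 (adjusted p = 0.0666, 0.195 and 0.0924). Of the tested machinery genes 15 peaked from 0 to 6 h (36.6%, against 38.2% of all genes). Another 14 peaked from 12 to 18 h (34.1%, against 27.6%).

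The 17 F-box genes under the level filter had means from 3.25 to 5.52. Of these, 8 belong to the Fbxw cluster expanded in rodents (Fbxw13, Fbxw15, Fbxw18, Fbxw20, Fbxw21, Fbxw22, Fbxw24 and Fbxw26), all on chromosome 9 in RefSeq. The rest were Fbxl8, Fbxl13, Fbxo15, Fbxo24, Fbxo39, Fbxo40, Fbxo43, Fbxo47 and Fbxo48. Fbxo40 is known from skeletal muscle. Without the filter limma called 0 of the 17, against 4% of all genes, with a lowest adjusted p of 0.314. At an unadjusted p under 0.05 there were 0 of 17, against 23.4% of all genes. For 15 of the 17 the mean of the 3 arrays of narrow range was above that of the other 21, by a median of 0.15 over the 17, as the array background also was. Fbxw13, for example, held 4.41 at CT 40 and a mean of 3.84.

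For 3 genes a further probe set was measured. That of Fbxl7, whose protein acts on Aurora A, gave another result than the one used. Its mean was 5.73 and its amplitude 0.24 ± 0.06, peaking at 19.8 h (adjusted p = 0.0356), against 0.05 ± 0.04 and 11.5 h (adjusted p = 0.608) for the probe set of highest mean. The further probe set of Fbxo31 was not called (0.07 ± 0.04, adjusted p = 0.530).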

How the data were processed

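Amplification and biotin labelling used NuGen kits, per the labels. The authors deposited log2 intensities per probe set, made by RMA in Affymetrix Expression Console (1.3.1.187) as named in the submitters' processing notes. The settings are not given in the sources used here. Array medians lay between 6.24 and 6.35. Of 35556 probe sets 21789 carried 1 gene symbol in the platform annotation, and all 70 member symbols matched the RefSeq table of GRCm38.p6.

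Fits across all genes were made in R 4.3.3 by limma 3.58.1 (lmFit, eBayes), with cosine and sine terms of 24 h. The 24-h fit to all 24 arrays had 21 residual degrees of freedom. The cosine and sine pairs of 24 h and of 12 h were each tested by a moderated F test. The cycle term was tested by a two-sided moderated t test. The p-values measure the spread between pools around the fit. Tables and figures used Python 3.11.15. The fits were tested on simulated data. Members and lists were chosen with earlier results of these data known. Named genes were all called members, 9 of known role, the 5 uncalled with the smallest p, the 3 with the smallest p of each other test, the called genes of the SCF machinery, and Fbxl21 as comparator. Some other genes were named after their values were seen. The alternatives were other filters, normalisations, covariates and probe sets, and leaving out arrays.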

Additional observations from a re-analysis of the deposited data

How the results depend on the processing

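Of 53 tested genes, the count called for a 24-h rhythm was 2. It was 1 with no filter on dim genes, where all 70 were tested (Fbxo22 lost, adjusted p = 0.0574 by limma). It was also 1 without CT 40, CT 62 and CT 64. It was 0 at an adjusted p under 0.01 and 16 with the oligodendrocyte marker covariate. The shares of all genes called were 4% with no filter, 4.87% without the 3 arrays and 25.5% with that covariate. Leaving out 1 array gave 1 to 5, while 5.04% to 10.3% of all genes were called. The count was 5 without CT 26 (10.3% of all genes). It was 1 without CT 24, CT 36, CT 38, CT 48, CT 50, CT 54 or CT 64 (5.19% to 5.97%). The count stayed within 1.5 times of 2 with a filter at the 50th percentile, where 41 genes were tested. It also did so with quantile normalisation, median centring, a trended robust prior and linear time. The same held for array weights (3, with Fbxl6) and the lowest probe set per gene (3 of 54 tested, with Fbxl7). With the array background covariate the count was again 2, but the genes were Fbxo36 and Fbxo34, and Fbxo22 was lost. The shares of all genes called in these settings ran from 3.83% to 12.4%. For the SCF machinery the count was 2, with the share of all genes called in brackets for the alternatives. It was 4 with quantile normalisation (7.24%), 4 with array weights (11.2%) and 15 with the oligodendrocyte covariate (25.5%). It was 1 without the 3 arrays (4.87%), 0 with the array background covariate (3.83%) and 0 at 0.01. When 1 array was left out it was 1 to 5, with 5 without CT 30 (10.3%). It was 1 without CT 50, CT 54 or CT 64 (5.27% to 5.84%). The counts of 0 for the change between cycles and for the 12-h rhythm were 0 in every setting run, for the cycles also with circadian time as a block and without the 10 arrays of CT 18 to CT 26 and CT 42 to CT 50, those rich in pituitary markers and their partners. For the 24-h rhythm, leaving out these 10 arrays was an alternative chosen after seeing the data. It gave 11 for the F-box genes and 6 for the machinery, against 15.1% of all genes. The cause of these shifts was not tested. With 1 array per time, the number of arrays limits the precision.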
